A study of Ambystoma mexicanum with 7 samples.

Results

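The miRNA content of uninjured axolotl limb was described from the 3 stump samples of the series, out of 7 sample records in all. Stump is the name given to the hindlimb tissue of white axolotls (Ambystoma mexicanum) collected at amputation, day 0, with full thickness skin, bone, muscle and nerve fibres in it. The 3 samples came from 3 medium to large animals, here replicates 1, 2 and 3, without treatment, and no genotype other than white is named for them. The other 3 tissue samples are 17 dpa (days post-amputation) blastemas of the same animals and were not analysed here, and 1 further record pools the LC Sciences arrays of both tissues. Aliquots of the same total RNA were hybridized to a custom vertebrate chip of LC Sciences and to an all-species array of Exiqon with LNA probes. LNA probes hold chemically locked nucleotides for tighter pairing. Each sample is a mixture of tissues, so that fewer cells of a type and less RNA per cell cannot be told apart.

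miRNAs are short RNAs that hold a protein complex on messenger RNAs and lower their translation or stability. Pairing starts at the seed, bases 2 to 8 counted from the 5′ end, so miRNAs with the same seed form a family with overlapping targets. Many are typical of a tissue in vertebrates: miR-1, miR-206 and miR-133 of striated muscle, miR-203 and miR-205 of stratified epidermis, the miR-200 family of epithelia, miR-126 of endothelium, miR-140 of cartilage, and miR-124 and miR-9 of neurons. A precursor hairpin yields a guide strand and a passenger strand, which older names mark with a star. The axolotl was not a source of the probes, so a signal here is that of axolotl RNA on a probe designed for another species.

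The sequences below are the target sequences given with the LC Sciences probes, 5′ to 3′, with the seed in capitals. The first set shows members of families with high signal, and the names miR-1599 and miR-1826 from outside them, each with the species of the probe.
frog miR-206: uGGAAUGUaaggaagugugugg
zebrafish let-7a: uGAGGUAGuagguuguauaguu
zebrafish miR-203a: gUGAAAUGuuuaggaccacuug
frog miR-26: uUCAAGUAauccaggauaggc
frog miR-23b: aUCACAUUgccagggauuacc
frog miR-126: uCGUACCGugaguaauaaugc
frog miR-199a*: uACAGUAGucugcacauugguu
human miR-199a-3p: aCAGUAGUcugcacauugguua
chicken miR-1599: gGAGGGAGgaaaaaaaaaaa
human miR-1826: aUUGAUCAucgacacuucgaacgcaau
The miR-1599 target holds 13 A and 7 G in 20 bases, and the starred frog miR-199a and the human miR-199a-3p are the same strand read from a start that differs by a base.

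The second set shows probe targets that differ by few bases and were far apart in signal in the same 3 stumps. These pairs were picked after their values were seen.
zebrafish let-7f: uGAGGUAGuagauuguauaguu
chicken let-7k: uGAGGUAGuagauugaauaguu
zebrafish miR-26b: uUCAAGUAauccaggauagguu
human miR-26b: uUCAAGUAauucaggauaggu
frog miR-499: uUAAGACUugcagugauguuuag
chicken miR-499: uUAAGACUuguagugauguuuag
zebrafish miR-16b: uAGCAGCAcguaaauauuggag
zebrafish miR-16c: uAGCAGCAuguaaauauuggag
human miR-21: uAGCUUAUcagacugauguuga
dre-miR-21: uAGCUUAUcagacugguguuggc
zebrafish miR-29a: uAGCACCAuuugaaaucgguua
human miR-29a: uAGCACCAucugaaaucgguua
frog miR-214: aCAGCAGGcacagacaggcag
chicken miR-214: aCAGCGGGaacagacaggcag
The prefix dre marks a zebrafish probe. Only the miR-214 targets differ within the seed.

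On the LC Sciences chip 1974 probes for 1393 miRNA names were read, after 12 control reporters were left out. The signal is a normalized intensity with no unit, a floor of 32 was set under it, and the level of a name is the median over its probes. A name was called detected where it reached 32 in all 3 stumps. This held for 152 names, 10.9% of those measured, whereas 1185 names reached 32 in no stump, 34 in 1 and 22 in 2. The stumps alone had 195, 167 and 172 names at or above 32, and the signals of all names summed to 203555, 216998 and 227604. The median of the detected names was 310, 324 and 320 in replicates 1, 2 and 3, so the arrays lay on nearly the same scale. On these arrays the stump of replicate 1 was labelled with Cy5 and those of replicates 2 and 3 with Cy3, so for replicate 1 the animal and the dye cannot be told apart.

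Detection went with the species of the probe. Of 168 names that had a frog probe, 90 were detected (53.6%), against 62 of 1225 without one (5.06%) and 11 of 689 with human probes alone (1.60%). Of 217 names with probes from several species 108 were detected (49.8%), against 44 of 1176 from a single species (3.74%). Few starred names were detected, 4 of 252 (1.59%) against 148 of 1141 others (13.0%). The groups were not matched for probe species, and none of the 4 had a human probe, so this does not show that passenger strands were rare. Most detected names, 108 of 152, were thus miRNAs with probes from several vertebrates.

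The signal was concentrated in few names. The 10 highest held 36.2% of the summed signal of all names and the 25 highest held 54.9%, and the highest name stood 41.9-fold over the median of the detected names (318). A mean of at least 1000 was found for 45 names and of at least 100 for 122. The lowest detected mean was 42.3, for miR-638. These are orders of signal and not of molecules, since probes differ in affinity.

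miR-1, the miRNA most typical of striated muscle, had the highest mean. Its signal was 13057, 13085 and 13876 in the 3 stumps (mean 13339 ± 465, SD, n = 3), and miR-1a, which has the same seed, was at 10593, 11619 and 12369. These ranges did not overlap, but the miR-1a target is the zebrafish and human miR-1 target without its last base. The opossum miR-1 probe has the miR-1a target and was at 10192, 11229 and 11988. Whether miR-1 and miR-1a here are different RNAs was not tested. miR-206, the relative found in vertebrates mainly in skeletal muscle, was at 7545, 6163 and 7464 (7057 ± 776), below miR-1a in every stump. The second highest mean belonged to miR-1599, a chicken name with 1 probe, at 3006, 15316 and 17776. It was the highest name of replicates 2 and 3 and only the 14th of replicate 1, so its mean of 12033 ± 7914 describes no single sample.

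The next names were miR-1826 and miR-203a. miR-1826, a human name whose sequence lies in ribosomal RNA and which is counted here with fragments of other RNAs, was at 5564, 7436 and 6293. miR-203a, which in mammalian epidermis promotes the exit of keratinocytes from division, was at 5910, 6469 and 6276 (6218 ± 284), and miR-203, which shares that target in part of its probes, at 4846, 5437 and 6176. let-7a, of the family known for promoting differentiation, was at 5265, 5905 and 5746 (5639 ± 333). miR-26a, a widely expressed miRNA, was at 5209, 4821 and 6235 (5422 ± 731), and let-7f at 4254, 4313 and 4462 (4343 ± 107). The ranges of miR-203, let-7a and miR-26a overlapped, so that no order among them is beyond their spread, while let-7f lay below these 3 names in every stump.

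**Figure D1:**
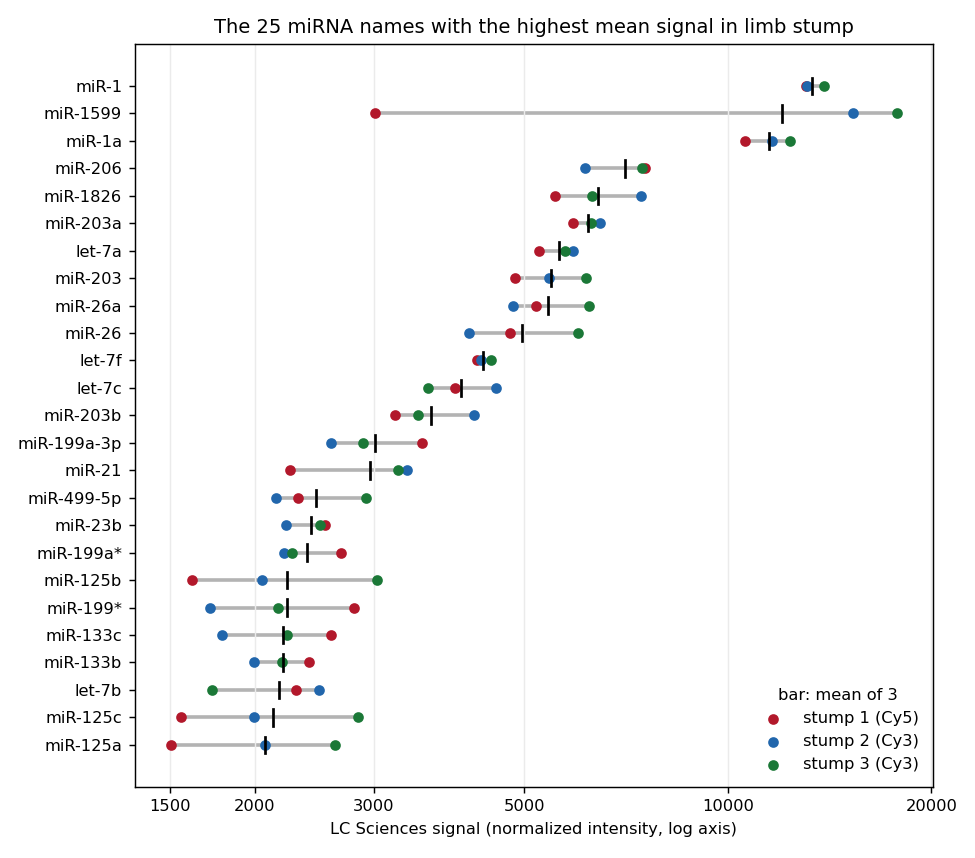
LC Sciences signal (normalized intensity, log axis) of the 25 miRNA names with the highest mean, with a point for each of the 3 stumps, a grey line for their range and a black bar for the mean. miR-1 lies between 13057 and 13876 in all stumps, whereas miR-1599 runs from 3006 in replicate 1 to 17776 in replicate 3.

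Below these came miR-199a-3p (3537, 2589 and 2892), a miRNA of connective tissue and mesenchyme, and miR-21 (2253, 3359 and 3252), which is common in most tissues and known for its increase after injury. miR-21 was lowest in replicate 1, and its mean was 2955 ± 610. miR-499-5p, which lies in an intron of a slow myosin gene in mammals, was at 2317, 2150 and 2920, and miR-23b, a widely expressed miRNA, at 2535, 2225 and 2500. miR-125b, a vertebrate relative of worm lin-4, was at 1616, 2049 and 3032. It was lowest in replicate 1 and highest in replicate 3, as were miR-125c (1558, 1992 and 2840) and miR-125a (1504, 2072 and 2626), which share its seed. let-7b, miR-133b and miR-133c stood beside them with means of 2172 ± 395, 2198 ± 205 and 2203 ± 403, and their ranges overlapped fully or in part.

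Neighbours in the order were mostly not separable. Of 151 pairs of names next to each other, 148 had overlapping ranges over the 3 stumps, and among the 25 highest 22 of 24 pairs did. The exceptions were miR-1a over miR-206, miR-203a over let-7a, where the lowest stump of the first was 5910 and the highest of the second 5905, and miR-10b over miR-92a (537 against 456). 8 names were among the 10 highest of every stump and 12 among those of any, and for the 25 highest these counts were 20 and 29. The top of the order was therefore shared by the animals, while the exact places were not.

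Grouped by seed, the 152 names had 140 distinct targets and 76 seeds. The 4 names with the seed GGAAUGU (miR-1, miR-1a, miR-206 and miR-1b) summed to a signal of 33226, the 9 let-7 names with GAGGUAG to 20370, the miR-203 names with UGAAAUG to 15345 and the miR-26 names with UCAAGUA to 11763. Names are not separate molecules, since a probe of one can capture RNA of a close relative. In 11 sets, names of different species stood for the same target: miR-205 and miR-205a had means of 1225 and 1197, while miR-20b and miR-20 were the farthest apart, at 166 and 89.5. Such names can also differ in their further probes.

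Of 46 families described, 39 had at least 1 detected name and 17 had all their names detected. Their 204 names without a star included 122 detected ones (59.8%, against the 10.9% of all names), and they held 68.6% of the summed signal. The 5 families with the most signal held 40.8%: miR-1 and miR-206 (15.4%, 4 of 5 names), let-7 (9.48%, 9 of 12), miR-203 (7.10%, 3 of 3), miR-26 (5.44%, 3 of 3) and miR-133 (3.43%, 4 of 4). The miR-125, miR-15/16/195 and miR-23 families followed with 3.05%, 2.26% and 2.04%. The families were chosen as well-conserved ones, so a high share detected was built into the choice.

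Families linked to cell division were present at moderate level on LC Sciences. In the family of miR-15, miR-16 and miR-195, which restrains the cell cycle in mammals, 7 of 12 names were detected, with miR-195 at 1161, 985 and 995. In the family of miR-17, miR-20, miR-93 and miR-106, known for promoting division, 10 of 13 were detected, with miR-93 leading at 354, 378 and 279. On Exiqon the leading names were miR-16a (mean 644) and miR-17-5p (870), so the order of these families by their leading name was not shared by the arrays. miR-25, of the separate miR-25 and miR-92 family with another seed (AUUGCAC), was at 1112, 1055 and 884. miR-130b was at 1673, 1493 and 1305, with 3 of 12 names of its family detected.

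Several widely expressed families had most of their names detected. All 5 miR-27 names and all 3 miR-24 names, which share clusters with miR-23, were detected, led by miR-27b (881, 1152 and 1079) and miR-24 (625, 632 and 813). miR-30c, of a family that restrains fibrotic genes in mammals, was at 947, 1087 and 856, with 6 of 7 names detected. miR-10b, which lies in a Hox gene cluster, was at 537, 588 and 571, while none of the 3 miR-196 names, from other sites in Hox clusters, was detected. miR-148a led its family, with 2 of 4 names detected, at 790, 647 and 621, and miR-191 led its cluster at 632, 741 and 577.

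Families with low signal included miR-222 (168, 169 and 140), miR-181a (211, 191 and 137), miR-103 (147, 116 and 131), miR-34 (99, 80 and 102) and miR-31 (88, 104 and 107). miR-193b was at 179, 113 and 170 and miR-100, a relative of miR-99 from a cluster with let-7 and miR-125, at 191, 242 and 218. No name was detected in 7 families: miR-18, miR-101, miR-146, miR-192 and miR-215, miR-194, miR-196, and the cluster of miR-182, miR-183 and miR-96, which is typical of sensory cells. For these the LC Sciences signal was below 32 in at least 1 stump, which with probes of other species does not show that the miRNA is absent. On Exiqon, at the lenient limit described below, all 3 miR-101 names and all 4 miR-196 names were detected. There 2 of 4 names were detected for miR-18 and for miR-146, 2 of 3 for the miR-182 cluster, 1 of 2 for miR-192 and miR-215 and 0 of 3 for miR-194.

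Lists of miRNAs typical of tissues were then read against the tissues that the samples were said to contain. The muscle list had the most signal: 10 of 15 names were detected (66.7%, against 10.9% of all names) with a list median of 1498, and the list held 22.0%, 19.2% and 21.0% of the summed signal in the 3 stumps (20.7% ± 1.39). The names not detected were miR-208, miR-208a, miR-208b, miR-1c and miR-499-3p, of which the miR-208 names are typical of heart. Besides miR-1 and miR-206, miR-133a was at 1969, 1637 and 1709 and miR-499 at 1402, 986 and 2106. Across all 1393 names the median was at the floor of 32. The 10.9% is a low mark for such lists, since it includes 689 names with human probes alone (1.60% detected). Names with a frog probe were at 53.6%, and the lists were not matched to all names for probe species.

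The epidermis list followed with 10 of 11 names detected, a median of 1197 and 10.4% of the signal. Among all names 10.9% were detected, and among those with a frog probe 53.6%. Its share was 10.4%, 10.5% and 10.4% in the 3 stumps, the most even share for its size among the lists of limb tissues. The sum under the shares includes miR-1599 (3006, 15316 and 17776), so an even share does not mean an even signal. The miR-203 family summed to 13976.5, 16117.5 and 15940.5. It was lowest in replicate 1, as was the miR-205 family, while the miR-200 names were lowest in replicate 2 as summed families. miR-205, an epithelial miRNA that maintains the epidermal stem cell layer in mice, was at 1231, 1135 and 1308. miR-200b was at 2205, 1862 and 1938 and miR-200a at 1233, 1045 and 1190, both known for holding cells in the epithelial state. miR-200c was the name not detected.

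Connective tissue, vessel wall and cartilage lists were detected at lower level. Of 11 connective tissue names 7 were detected, led by miR-199a-3p and miR-214 (1556, 1357 and 1130), which are made from a common transcript in mammals, and the list held 2.67% of the signal. The vessel wall list had 3 of 3 names detected and 1.03%, namely miR-126 of endothelium (1659, 1585 and 1597) and the smooth muscle pair miR-143 (264, 288 and 495) and miR-145 (203, 251 and 358). The cartilage list had 4 of 6 and 0.577%, led by miR-140-3p (427, 668 and 668) and miR-455-3p (263, 261 and 416). Against these counts stand 10.9% of all names and 53.6% of names with a frog probe, and the lists were not matched for probe species. In each of these lists at least 1 name typical of the tissue in mammals was detected, but other names of the same families were not. Detected were 1 of 4 miR-29 names and 5 of 6 miR-199 names of the connective tissue list, and 1 of 3 miR-140 names of the cartilage list. The name miR-140 was at 36, 32 and 32. All names of the vessel wall list were detected.

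Blood and nerve lists had median levels at the floor of 32. Of 17 blood and immune names 4 were detected (23.5%, against 10.9% of all names and 53.6% of those with a frog probe). These included miR-150 of lymphocytes (315, 542 and 356) and miR-451 of red cells (144, 281 and 274). The others were miR-223 of myeloid cells (57, 171 and 63) and miR-155 of activated immune cells (65, 69 and 56). Together with the undetected names the list held 0.561% of the signal. Of 22 nerve names only miR-128 was detected (4.55%), at 281, 291 and 285, and miR-124 and miR-9, which define neurons, were at the floor of 32 in all 3 stumps. The list was drawn up for nerve and Schwann cells together, so the count covers both and cannot part them.

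In lists of tissues that the samples should not hold, no name was detected of 3 typical of the eye, 5 of gut and kidney, 18 of the early embryo and 41 of a cluster found in placental mammals. The liver list had 1 of 2 names detected, miR-122 at 83, 39 and 60, and the pancreas list 1 of 5, miR-375 at 159, 107 and 60.5. These shares, on few names, are above the 10.9% of all names but not above the 53.6% of names with a frog probe. Both levels were near the lower end of the detected names and highest in replicate 1. Fragments of other RNAs had 5 of 9 names detected. Among these, miR-923 had a mean of 1156, miR-1280 of 1088 and miR-720 of 349, and their sequences lie in ribosomal or transfer RNA.

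**Figure D2:**
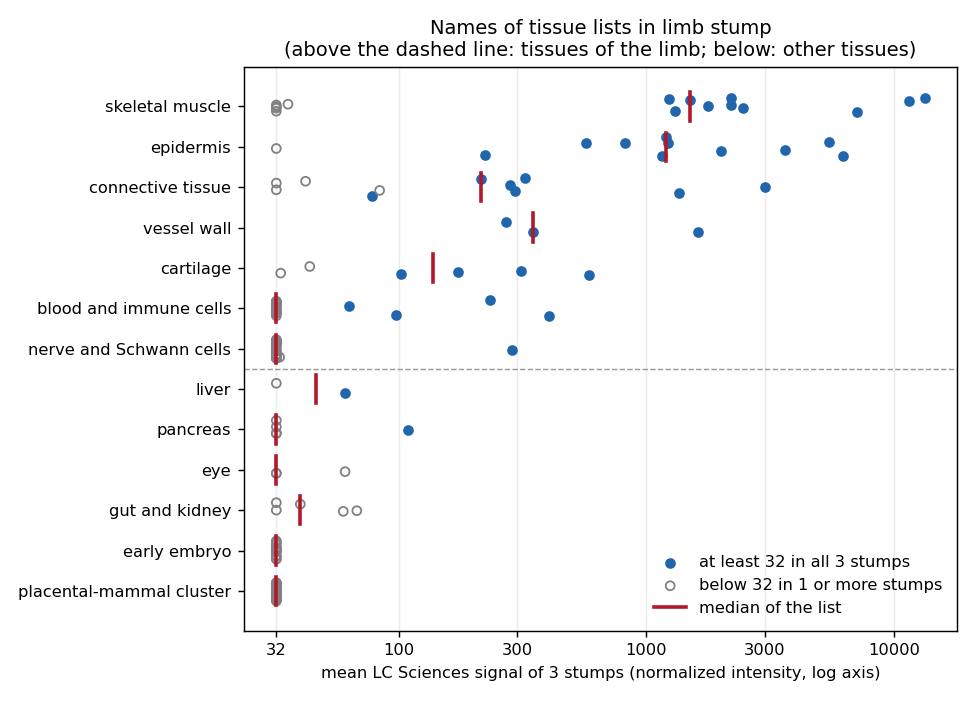
Mean LC Sciences signal over the 3 stumps (normalized intensity, log axis) of each name of the tissue lists, with filled points for names at or above 32 in all 3 stumps, open points for the others and a red bar for the median of the list. Muscle (median 1498) and epidermis (1197) lie far to the right, while the early embryo and placental lists stay at the floor of 32.

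Probes of the same name, from different species or from the same one, gave a view of how far the sequence set the signal. Pairs were compared where the brighter probe had a mean of at least 100. Of 376 pairs with identical targets, within 90 names, none differed by more than 2-fold, and the median was 1.07-fold. In 67 pairs with 1 substitution, within 19 names, the median was 3.03-fold, the largest difference was 51.9-fold, and 42 (62.7%) differed by more than 2-fold. Pairs with the substitution in bases 1 to 16 (23 pairs, median 3.73-fold, 82.6% over 2-fold) differed more often than those with it from base 17 on (44 pairs, 2.07-fold, 52.3%). Where only the 3′ end was longer or shorter (215 pairs, 39 names) the median was 1.27-fold and 22.3% were over 2-fold. Pairs of a name share probes and are not independent, so these are counts without a test. Between printed spots of the same probe the SD divided by the mean had a median of 0.0682 over 476 probes of detected names on the array of replicate 1.

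**Figure D3:**
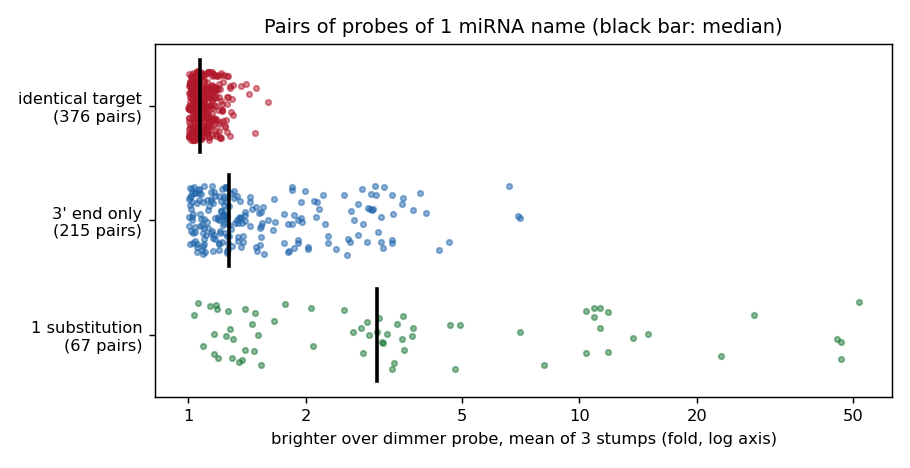
Fold between the brighter and the dimmer of 2 probes of a miRNA name (mean of 3 stumps, log axis) for pairs with an identical target, pairs that differ at the 3′ end alone and pairs with 1 substitution. Each point is a pair and black bars are medians, at 1.07, 1.27 and 3.03.

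Of the printed pairs, those of miR-499 and miR-29a are among the counted pairs with 1 substitution. The others are outside these counts, since they join different names, differ by more substitutions or differ in length as well. Positions are counted from 1 at the 5′ end, with the base of the first probe before the position and that of the second after it. Zebrafish let-7f and chicken let-7k differ by U16A, and their signals were 4696, 4874 and 4378 against 134, 126 and 132, a ratio of 35.6. The frog and chicken miR-499 probes differ by C11U, with 1402, 986 and 2106 against values at the floor of 32 in all 3 stumps, which makes the ratio at least 46.8. The zebrafish and human miR-26b probes differ by C11U and a final base, with 2794, 2107 and 3217 against the floor, at least 84.6-fold. In each pair the dimmer probe was dim in every animal.

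Other pairs behaved likewise to different degrees. Zebrafish miR-16b and miR-16c, which differ by C9U, had means of 1108 and the floor of 32. The frog and chicken miR-214 probes differ by A6G and C9A, with a mean of 1375 against the floor. Human and zebrafish miR-21 probes differ by A16G, A22G and a final base, with 2209, 4292 and 3113 against 54, 152 and 140. The frog probes of miR-1a and miR-1b differ by A9U, with 10087, 12539 and 12367 against 1024, 1085 and 1568, so miR-1b still had a high signal. Neither zebrafish nor human probes were brighter throughout: zebrafish miR-19d had a mean of 587 against 114 for human miR-19b (U9C), and human miR-150 one of 369 against 52.3 for the zebrafish probe (C9U).

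Other substitutions went with smaller differences. Human miR-125b and zebrafish miR-125c differ by U18C, with means of 2253 and 2124. Zebrafish let-7a and let-7f differ by G12A, with 6088 and 4649, and zebrafish miR-203a and miR-203b differ by U11C, with 5910, 6469 and 6276 against 3221, 4212 and 3489. miR-203a was above miR-203b in every stump. Whether the axolotl makes both forms or RNA of 1 form binds both probes was not tested.

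The 4 detected starred names were miR-199a*, miR-199*, miR-140* and miR-133a*. miR-199a* and miR-199* have the same seed (ACAGUAG) and their guides share a target, so these 2 names are not separate observations. For 3 of the 4 names the starred strand had the higher signal on LC Sciences, between probes that may differ in affinity. miR-199a* was at 2680, 2209 and 2268 against 273, 315 and 296 for miR-199a, and miR-199* had a mean of 2229 ± 547 against 282 ± 43.5 for miR-199. miR-140* was at 474, 818 and 825, while miR-140 was at 36 and at the floor of 32 in the other stumps. Only miR-133a* stayed below its guide, at 123, 51.5 and 52.5 against 1969, 1637 and 1709, which is 4.26% of it. Later names call the starred strands of miR-199 and miR-140 the 3p strands, and the human probes with those names, miR-199a-3p and miR-140-3p, had signals in the same range (means of 3006 and 588). On Exiqon miR-199a* and miR-199* had the same values (mean 993). There the order was the other way, below miR-199a (1389) and miR-199 (1186), while miR-140* (1374) was above miR-140 (1062).

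The 3 stumps resembled each other over most names. The SD divided by the mean had a median of 0.175 over the 152 names, with 0.0702 at the 10th percentile and 0.339 at the 90th. It was below 0.1 for 36 names and from 0.1 to 0.2 for 57, and 93 names stayed within 1.5-fold from lowest to highest stump while 12 exceeded 2-fold. Spearman's rho across the 152 names, which share arrays and a normalization, was 0.970 for replicates 1 and 2, 0.968 for 1 and 3 and 0.963 for 2 and 3. After the company's normalization, replicates 1, 2 and 3 were the lowest for 52, 52 and 48 names. Normalization can itself even out such counts, so they do not show whether an animal was generally high or low.

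The steadiest names were miR-128 (SD over mean 0.0176), miR-126 (0.0245), let-7f (0.0247), miR-92a (430, 437 and 456, 0.0307) and let-7k (0.0319). The most variable was miR-29a, which in mammals restrains collagen genes, at 119, 68 and 459 (0.987). It was followed by miR-223 (0.661), high in replicate 2, miR-1599 (0.658), low in replicate 1, miR-133a* (0.539), high in replicate 1, and the chicken name miR-1623 (372, 391 and 141, 0.462), low in replicate 3. Each of these was set by 1 animal that stood apart from the other two. On LC Sciences let-7e was next, at 1150, 2088 and 891, whereas let-7a and let-7f hardly differed between the animals. These let-7e values are those of its human probe, the middle one of 3 probes with different targets. Its frog probe varied less, at 2096, 2668 and 2053, and its zebrafish probe was at 124, 126 and 88, so the wide spread is that of 1 probe.

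**Figure D4:**
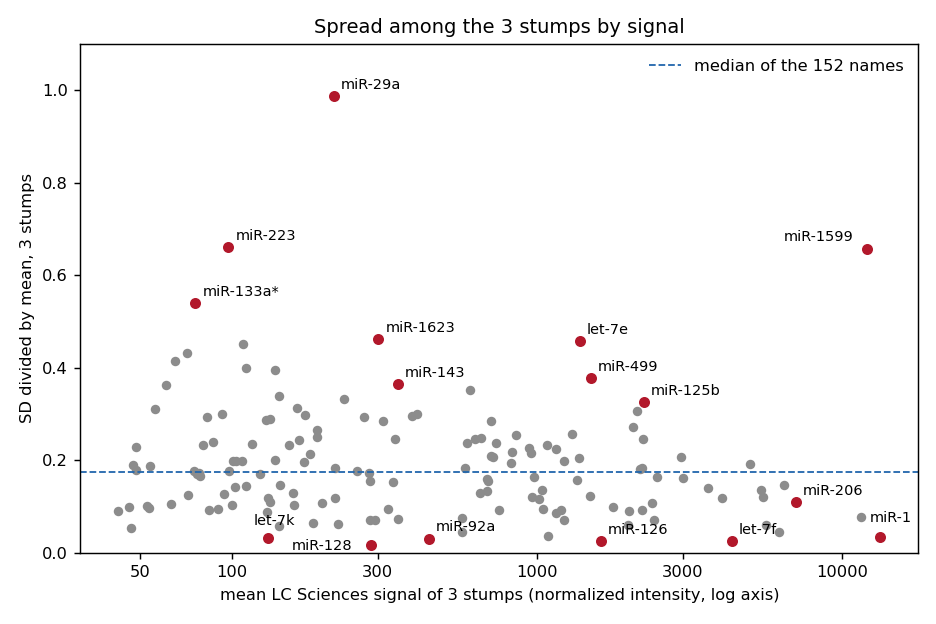
SD divided by the mean over the 3 stumps against the mean LC Sciences signal (normalized intensity, log axis) for the 152 detected names, with the median (0.175) as a dashed line and some names labelled. miR-29a stands alone at 0.987, and miR-1599 is the single name of high signal with a wide spread (0.658).

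Several names were highest in replicate 3. The muscle name miR-499 was at 1402, 986 and 2106, the smooth muscle names miR-143 at 264, 288 and 495, miR-145 at 203, 251 and 358, and miR-365, a widely expressed miRNA, at 104, 111 and 202. The vessel wall list held 1.04%, 0.979% and 1.08% of the signal and the cartilage list 0.524%, 0.554% and 0.654%, both highest in replicate 3. The shares of muscle and connective tissue were highest in replicate 1. The sum under these shares includes miR-1599 (3006, 15316 and 17776), so their order can differ from that of the signals. Among muscle families, miR-1 and miR-206 summed to 32369.5, 31976.5 and 35427 and miR-499 and miR-208 to 3856, 3264 and 5156, highest in replicate 3. The miR-133 family, at 8473, 6475 and 7254.5, was highest in replicate 1. The blood names miR-451 and miR-150 differed in other ways: miR-451 was low in replicate 1, and miR-150 high in replicate 2 with miR-223. With 1 sample from each animal, animal and sampling cannot be told apart.

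The Exiqon arrays gave a second view of the same RNA. The value used is the Hy3 signal of the stump above the local background, without scaling between arrays, from 9792 spots each and 4 spots a probe. The array of replicate 1 had 1209 spots marked poor (12.3%), against 186 and 211. A name was called detected where it was brighter than all 7 negative control probes on all 3 arrays, whose highest signals were 56.2, 55.1 and 58.3. This held for 535 of 980 vertebrate names (54.6%), which share probes and stand for 465 distinct probe sets. The signal was highest in replicate 1 for 407 of them and lowest in replicate 2 for 361, with medians of 149, 101 and 111, so levels between these arrays are compared here by order only.

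The limit was a lenient one on this platform. Among plant probes, which have no counterpart in an animal, 162 of 406 (39.9%) also passed it, with the sorghum probe miR164c at 11168, 7889 and 7072, against 573 of 1064 vertebrate probes (53.9%). Names of the early embryo list passed in 13 of 24 cases and of the placental cluster in 23 of 45, with miR-519d at 2514, 1513 and 1872. The eye list passed with 5 of 5 names, led by miR-184 at 181, 111 and 106, and the liver list with 2 of 2. The pancreas list and the gut and kidney list each passed with 1 of 5. A call on Exiqon alone is therefore read against a background of this size. The small nuclear RNA U6 had signals of 10042, 7159 and 7081 on 1 of its probes.

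Muscle miRNAs led this array too. miR-1a was highest at 14069, 8183 and 12763, followed by miR-1b at 13361, 7644 and 12542, and miR-1, miR-133b, miR-133 and miR-133a were among the 10 highest with means of 5099, 4748, 4415 and 4298. An insect miR-1 probe was brighter than all of these, at 22739, 13093 and 21007, while another probe of that insect name was at 5448, 3069 and 4103. The other names among the 10 highest were miR-494 (mean 8394), miR-668 (7672), let-7k (5109) and miR-720 (4170). miR-494 and miR-668 are mammalian names, and both were at the floor of 32 on the LC Sciences chip in every stump.

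The tissue lists had the same leading pair on Exiqon. Of 14 muscle names 13 were detected with a list median of 3580, and all 11 epidermis names with a median of 1573, led by miR-203a at 2855, 1869 and 2409. The connective tissue list had 11 of 12 names detected, the vessel wall and cartilage lists 5 of 5 each, blood 13 of 17 (76.5%) and nerve 18 of 26 (69.2%), against 54.6% of all vertebrate names. miR-140, at the floor in 2 stumps on LC Sciences, was at 1252, 769 and 1163 here, and miR-142-3p, of blood cells, at 1288, 1006 and 887 against 32 in all stumps there. In the nerve list miR-124 and miR-9 had means of 88.2 and 78.8, near the limit, and the list median was 78.8. Its leading name was miR-212, at 1440, 829 and 889.

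Over names present on both arrays and detected on LC Sciences, the levels were ordered alike in part. Spearman's rho was 0.628 over 139 names that share the RNA extract, as a description with no test. Of these 139 names 132 (95.0%) were also detected on Exiqon, whereas of the names on both arrays that were detected on Exiqon 30.9% were detected on LC Sciences. Names detected on Exiqon alone numbered 295 and were dimmer there (median 87.5 against 622 for those on both). On the LC Sciences chip they more often had human probes alone (58.3% against 4.55%). Names detected on LC Sciences alone were miR-92a, miR-92, miR-92b, miR-150, miR-22b, miR-425 and miR-638. Within these 139 names, 3 of the 10 highest on each array were shared, and 13 of the 25 highest.

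**Figure D5:**
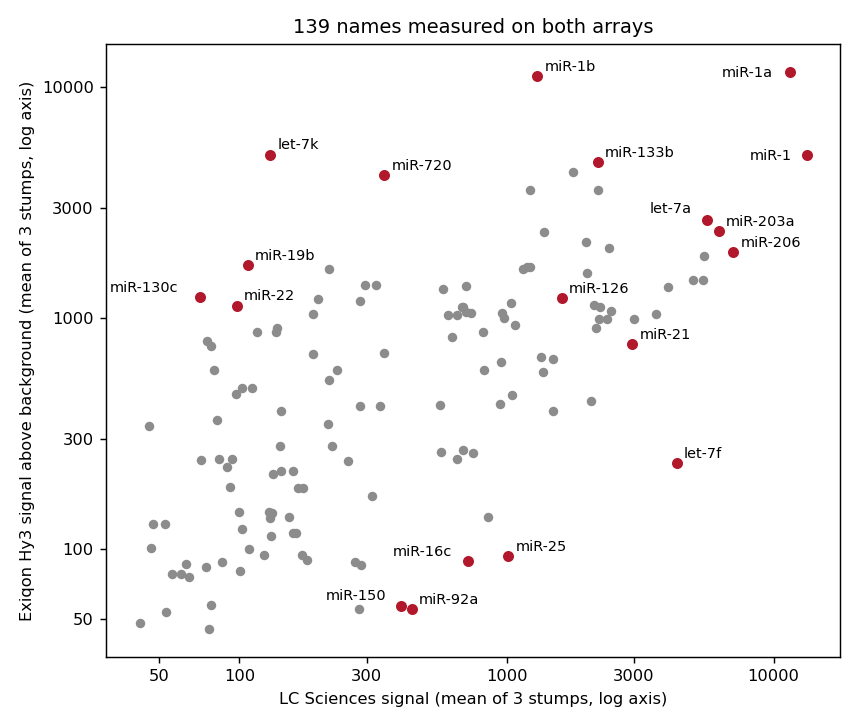
Exiqon Hy3 signal above background against LC Sciences signal (means of 3 stumps, both log axes) for the 139 names on both arrays that were detected on LC Sciences. miR-1a is high on both, while let-7k and miR-130c are high on Exiqon alone and miR-25, let-7f and miR-92a on LC Sciences alone.

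The order of some names differed widely between the arrays. let-7k was 102nd of the 139 on LC Sciences (mean 131) and 3rd on Exiqon (5109), while let-7f, which differs from it by the base given above, was the other way round (9th and 96th). miR-130c, miR-19b and miR-22 also stood higher on Exiqon, where miR-22 was at 1243, 888 and 1276 against 82.5, 94 and 117 on LC Sciences. miR-25, its relative miR-92a, miR-16c and miR-150 stood lower, with miR-25 at 109, 83.2 and 87.8 on Exiqon against 1112, 1055 and 884.

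Differences between animals were shared by the arrays in part. For each stump the deviation of a name from its mean over the stumps was compared between arrays over 132 names, and Spearman's rho was 0.468, 0.445 and 0.671 for replicates 1, 2 and 3, a description over names that share the extract. miR-29a, highest in replicate 3 and lowest in replicate 2 on LC Sciences, was at 347, 202 and 493 on Exiqon, and its relative miR-29c at 432, 252 and 675. miR-499-5p (1139, 730 and 1363) and miR-143 (748, 496 and 882) were also highest in replicate 3 on Exiqon. As log2 deviations from the mean of the stumps, on Exiqon after removal of each array's median deviation, miR-223 was at -0.77, 0.82 and -0.62 on LC Sciences and at -0.07, 0.55 and -0.48 on Exiqon, highest in replicate 2 on both. miR-133a* was at 0.70, -0.55 and -0.52 on LC Sciences and at 0.41, -0.07 and -0.58 on Exiqon. It was highest in replicate 1 on both, but on Exiqon replicate 1 was no farther from replicate 2 than replicate 2 from replicate 3. Other differences were smaller or ordered otherwise on Exiqon. let-7e was at -0.26, 0.60 and -0.63 on LC Sciences, where its human probe set the level, and at -0.03, 0.07 and 0.003 on Exiqon. miR-125b was at -0.47, -0.12 and 0.44 on LC Sciences and at 0.01, -0.15 and 0.11 on Exiqon. miR-21 was lowest in replicate 1 on LC Sciences (-0.39, 0.19 and 0.14) and in replicate 3 on Exiqon (-0.07, 0.28 and -0.14). miR-1599 was not among the Exiqon names, so its low signal in replicate 1 has no second reading.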

How the data were processed

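RNA of 3 limb stumps was measured on LC Sciences and Exiqon arrays. The deposited LC Sciences signals are intensity values normalized by the company over its samples. The methods name Lowess and the array report headers a global normalization, so the method is not settled here. The deposited Exiqon files hold intensity per spot in Hy3 and Hy5 with no correction by the authors, and only Hy3 of the stumps was used. The authors' ratio, fold change and p-value columns compare stump with blastema and were not used.

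LC Sciences signals below 32 were set to 32, 12 control reporters left out, and the median taken over the probes of a name without its species prefix and C_ mark, whose meaning is not given in the sources used here. Exiqon spots had their local background subtracted, flagged spots were dropped, and a probe's remaining spots (4 were printed) were averaged. A probe counted under each name it lists. The number of arrays limits the precision, and depth does not apply.

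The stumps form 1 group, so no test was made, and SDs are over 3 animals. The names described are the 25 highest on LC Sciences, the leading name of each family and tissue list, the 5 with the largest and the 5 with the smallest SD over mean, the 10 highest on Exiqon and the detected passenger strands. Others were singled out after their values were seen, as were the probe pairs. Members and lists were chosen with earlier results of these data known. The dye of each stump was taken from the array files, as the series text gives numbers of dyes that do not add up. The steps were tested on simulated data and run in Python 3.11.15 with numpy 2.4.6, pandas 2.3.3, scipy 1.17.1 and matplotlib 3.10.9. Alternatives were the mean over probes, frog probes alone, a floor of 64, scaling, other treatments of spots and background, and leaving out each stump. Blastema samples were left out.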

Additional observations from a re-analysis of the deposited data

How the results depend on the processing

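No paired analysis was possible because the stumps form 1 group and no test was made. The mean over probes in place of the median put the leading level at 12725, still miR-1, and the lowest correlation between stumps at 0.958. Frog probes alone left 87 detected names, miR-1a in the lead at 11664, a share of 51.1% for the 10 highest and a lowest correlation of 0.936, with fewer names in the sum by construction. A floor of 64 put that share at 30.5%, the lowest correlation at 0.955 and the correlation of the arrays at 0.578, which was 0.559 over all 745 names on both. The Exiqon median SD over mean, 0.111 over all names, was 0.0421 without background subtraction, 0.162 with arrays scaled to a common median and 0.186 over detected names. For values that moved under other settings the cause was not tested.

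Leaving out each stump in turn gave 154 to 162 detected names, a leading level of 13071 to 16546, where miR-1599 led without replicate 1, a share of 34.8% to 37.9%, a median SD over mean of 0.119 to 0.157, a lowest correlation of 0.959 to 0.969, a muscle median of 1282 to 1754, a correlation of the arrays of 0.621 to 0.633, 545 to 553 names on Exiqon and an Exiqon SD over mean of 0.0653 to 0.123. Leaving out miR-1599, chosen after seeing the data, gave a share of 34.5%. Levels of named miRNAs moved by over 1 SD for 10 of 39 with frog probes alone, 11 of 64 with the mean over probes, 3 of 64 without C_ probes and 7 of 10 on Exiqon with spot medians.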

Other observations

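Among the detected names, 14 belonged to no family or tissue list, and most had 1 probe from chicken or human. miR-1777 was at 329, 522 and 317, miR-1810 at 423, 344 and 255 and miR-762 at 114, 198 and 115. miR-210, the miRNA known for its rise under low oxygen, was at 123, 168 and 95 on LC Sciences and at 192, 112 and 132 on Exiqon.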
